A study of Mus musculus with 20 samples.

Results

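A set of 10 genes that build or tie together microvilli was followed through sorted mouse beta cells that lack Foxo1, Hnf4a or both. They are Anks4b, Ush1c, Cdhr2, Cdhr5, Myo7b, Myo1a, Vil1, Espn, Baiap2l2 and Ezr, and were picked by symbol. All 10 of 10 were found among the 26305 named genes of the deposited expression table. The list was drawn up with earlier results of these data known, and which comparison chose it is not recorded. In every comparison of cells without and with Hnf4a (HKO against WT, DKO against WT and DKO against IKO) the values of the 10 genes are therefore a description, given without p-values. Of the 10 genes, 6 had a mean of at least 0.5 FPKM (fragments per kilobase, relative to sequencing depth) over the 20 libraries and were among the 12455 genes tested. Cdhr5, Myo7b, Myo1a and Espn fell under that limit and are given as reads.

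RNA was sequenced from islet beta cells in 4 genotypes with 5 libraries each. DKO cells lack both Foxo1 and Hnf4a, HKO cells lack Hnf4a, IKO cells lack Foxo1, and WT cells are wild type. The deletions were made with floxed Foxo1 and floxed Hnf4a alleles and RIP-Cre, which expresses Cre recombinase from the rat insulin promoter. The sorted cells of every group were marked by the RIP-Cre and ROSA26-tomato alleles, and came from male mice of 6 to 8 months on a chow diet.

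Microvilli are finger-like membrane protrusions held up by a bundle of actin filaments, and they are packed most densely on the brush border of the intestine and kidney. Neighbouring microvilli are joined at their tips by the cadherins Cdhr2 and Cdhr5, whose tails are held by a complex of the scaffolds Ush1c (harmonin) and Anks4b and the motor Myo7b. Hnf4a is a nuclear receptor that activates genes of the differentiated intestinal, hepatic and renal epithelium, and it is also present in beta cells. Foxo1 is a forkhead factor restrained by insulin signalling.

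The stretches just upstream of the genes are shown first, since the genotypes remove transcription factors. Of the 10 genes, 8 had a window in the RefSeq table of promoters (GRCm38.p6), and Baiap2l2 and Myo7b did not. An HNF4 motif (CAAAGTNCA, either strand) occurred in 1 of the 8, Anks4b, where it lay on the opposite strand, 59 to 51 bases before the start. The HNF1 motif (searched on either strand) occurred in 1 of the 8, Cdhr2, 54 to 45 bases before the start. The 4 sequences follow, each the 250 bases before the start, read 5′ to 3′ on the strand of the gene. The motifs are in capitals, and Vil1 and Ush1c, which also had lower levels, are shown as windows that hold none of the motifs searched. Anks4b lies at chr7:120173608-120173857 (plus strand), Cdhr2 at chr13:54701213-54701462 (plus strand), Vil1 at chr1:74409134-74409383 (plus strand) and Ush1c at chr7:46238491-46238740 (minus strand).
Anks4b: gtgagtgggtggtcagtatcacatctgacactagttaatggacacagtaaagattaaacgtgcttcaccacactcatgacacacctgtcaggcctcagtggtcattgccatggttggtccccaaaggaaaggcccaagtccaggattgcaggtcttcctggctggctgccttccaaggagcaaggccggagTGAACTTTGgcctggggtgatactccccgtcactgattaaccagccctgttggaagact
Cdhr2: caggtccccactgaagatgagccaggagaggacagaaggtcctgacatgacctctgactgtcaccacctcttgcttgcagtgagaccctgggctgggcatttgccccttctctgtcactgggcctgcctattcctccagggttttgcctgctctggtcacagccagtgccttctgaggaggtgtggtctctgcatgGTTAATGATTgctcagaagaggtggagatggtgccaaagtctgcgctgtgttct
Vil1: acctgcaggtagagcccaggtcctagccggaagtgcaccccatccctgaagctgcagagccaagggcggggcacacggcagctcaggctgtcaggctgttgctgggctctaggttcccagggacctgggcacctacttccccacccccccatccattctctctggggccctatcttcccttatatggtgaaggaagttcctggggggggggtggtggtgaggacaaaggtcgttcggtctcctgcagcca
Ush1c: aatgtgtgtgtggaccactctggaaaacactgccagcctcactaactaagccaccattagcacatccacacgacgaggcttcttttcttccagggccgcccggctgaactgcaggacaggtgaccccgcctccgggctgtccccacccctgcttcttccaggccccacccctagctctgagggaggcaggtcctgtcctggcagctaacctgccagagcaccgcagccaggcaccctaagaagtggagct

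In the whole table of 32851 promoter windows, counted over the same 250 bases, 1.19% held the HNF4 motif and 0.371% the HNF1 motif. The FOXO motif GTAAACA and the TATA box TATAAA (either strand) were found in 0 of the 8 genes, against 3.17% and 12.4% of all windows. Such a match describes letters only. It does not show a binding site or a cause, and a window without a match says nothing of the factor. On GRCm38 with GENCODE vM21, Anks4b spans 120173858 to 120185586 of chromosome 7 and Ush1c 46195350 to 46238503 of the same chromosome. Vil1 spans 74409376 to 74435559 of chromosome 1 and Baiap2l2 79258195 to 79285537 of chromosome 15. Exons of Vil1 overlap Usp37 on the opposite strand (3.53 FPKM in WT), and those of Ezr overlap Sytl3 (1.01 FPKM in WT). Whether counting used strand is not given in the sources used here, so reads in these overlaps cannot be told apart.

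Library totals ran from 22.5 to 34.6 M reads. Foxo1 stood at 1.40 ± 0.263 FPKM in DKO and 1.11 ± 0.460 in IKO, against 5.97 ± 1.84 in HKO and 6.64 ± 1.48 in WT (SD, n = 5 each). Hnf4a stood at 3.99 ± 0.341 FPKM in DKO and 3.82 ± 0.355 in HKO, against 5.39 ± 1.02 in IKO and 5.56 ± 0.860 in WT, and did not pass over all genes (limma adjusted p = 0.0630 in HKO against WT and 0.161 in DKO against IKO). FPKM of a whole gene can include exons outside the deleted part, so it does not measure how complete the deletion was. In bulk RNA, fewer cells of a type and less RNA per cell cannot be told apart. Markers of beta cells summed to between 269088 and 388359 FPKM per library. In 3 libraries the summed acinar markers stood apart, at 1505 FPKM in HKO replicate 4, 1534 in HKO replicate 5 and 1480 in DKO replicate 3, against 47.3 to 465 in the other 17. Within each genotype replicates 1 and 2 resembled each other closely, as did 4 and 5, and the labels do not say whether each library is another animal. The p-values, standard errors (SE) and intervals therefore speak only of variation among these libraries, some of which may be technical. Where close pairs are not averaged or treated as correlated, libraries count as independent, so SEs and intervals may be too narrow.

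In WT beta cells the scaffold and the bundling protein were the most abundant of the 10. Ush1c, the PDZ scaffold of the adhesion complex, averaged 29.6 ± 3.17 FPKM in WT (n = 5), above 81.3% of tested genes. Vil1 (villin), which bundles and severs actin in microvilli, followed at 22.1 ± 4.14 FPKM, and the ranges of these first 2 genes overlapped. Next stood Anks4b at 13.8 ± 1.75 FPKM and Ezr at 13.0 ± 1.23 FPKM, again with overlapping ranges. Baiap2l2, an I-BAR protein that shapes membrane protrusions, was far lower at 1.24 ± 0.202 FPKM, and the cadherin Cdhr2 lower still at 0.679 ± 0.146 FPKM. The other 4 genes averaged from 0.00217 FPKM (Espn) to 0.0748 FPKM (Myo1a) in WT, with ranges that overlapped between neighbours in the order. Both scaffolds of the adhesion complex were thus present at levels above the middle of the tested genes, while its motor Myo7b and its cadherin Cdhr5 were at the limit of detection.

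**Figure D1:**
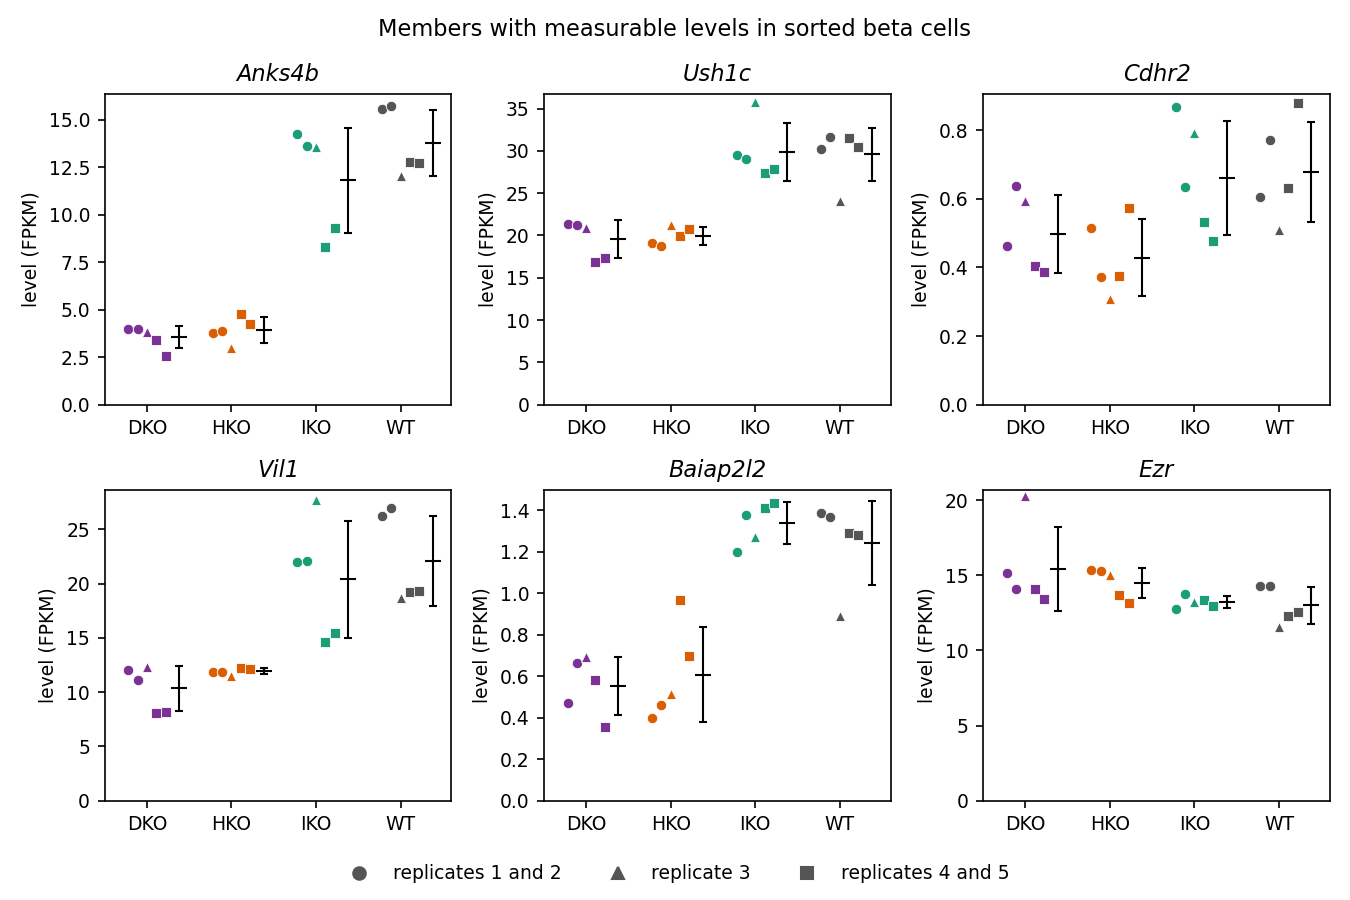
Level in FPKM (each vertical axis starts at 0) of the 6 genes above the limit, per library, in DKO, HKO, IKO and WT. Circles are replicates 1 and 2, triangles replicate 3, squares replicates 4 and 5, and the bar at the right of each group is the mean ± SD (n = 5); Anks4b lies between 2.58 and 4.78 FPKM in all DKO and HKO libraries and between 8.32 and 15.7 FPKM in all IKO and WT libraries.

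Anks4b, which scaffolds the complex at microvillus tips, was the gene with the lowest remaining share where Hnf4a was deleted. In replicates 1 to 5 it measured 4.00, 3.97, 3.84, 3.39 and 2.58 FPKM in DKO and 3.78, 3.87, 2.96, 4.78 and 4.24 FPKM in HKO. It measured 14.3, 13.6, 13.5, 8.32 and 9.28 FPKM in IKO and 15.6, 15.7, 12.0, 12.8 and 12.7 FPKM in WT. Every library without Hnf4a lay below every library with it, and the lowest IKO libraries were replicates 4 and 5. The HKO mean was 28.5% of WT (log2 fold change −1.69, SE 0.15) and the DKO mean 25.8% of WT (log2 −1.82, SE 0.15). Here and below, fold changes are differences of log2(FPKM + 0.5), a scale that makes those of weakly expressed genes look smaller than they are. These values rested on 121 to 267 reads of Anks4b per library in DKO and HKO, and on 469 to 926 in IKO and WT.

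Ush1c, the binding partner of Anks4b in the adhesion complex, was lower by a smaller step from its higher level. It measured 21.4, 21.3, 20.9, 16.9 and 17.3 FPKM in DKO and 19.1, 18.7, 21.3, 19.9 and 20.8 FPKM in HKO, in replicates 1 to 5. The IKO libraries held 29.5, 29.1, 35.8, 27.3 and 27.8 FPKM and the WT libraries 30.2, 31.6, 24.0, 31.5 and 30.5 FPKM. No library of DKO or HKO reached the lowest of IKO and WT, which was WT replicate 3. The HKO mean was 67.5% of WT (log2 −0.55, SE 0.09) and the DKO mean 66.1% of WT (log2 −0.59, SE 0.09).

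Vil1 stood between Anks4b and Ush1c in the size of its difference. In replicates 1 to 5 it measured 12.0, 11.1, 12.3, 8.09 and 8.16 FPKM in DKO and 11.9, 11.9, 11.5, 12.2 and 12.1 FPKM in HKO. It measured 22.001, 22.1, 27.7, 14.7 and 15.5 FPKM in IKO and 26.2, 27.0, 18.7, 19.2 and 19.3 FPKM in WT. The groups without Hnf4a did not overlap those with it, although IKO replicates 4 and 5 came closest. The 5 HKO libraries were nearly alike, with an SD of 0.291 FPKM, whereas the SD was 2.07 in DKO, 5.38 in IKO and 4.14 in WT. The HKO mean was 54.0% of WT (log2 −0.84, SE 0.16) and the DKO mean 46.9% of WT (log2 −1.06, SE 0.16).

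Baiap2l2 was low in all cells, with 17 to 84 reads per library. It measured 0.469, 0.664, 0.691, 0.582 and 0.355 FPKM in DKO and 0.398, 0.461, 0.513, 0.966 and 0.699 FPKM in HKO. It measured 1.196, 1.38, 1.27, 1.41 and 1.43 FPKM in IKO and 1.38, 1.37, 0.890, 1.29 and 1.28 FPKM in WT. DKO lay below IKO and WT with no overlap, but HKO replicate 4 lay above WT replicate 3. The HKO mean was 48.9% of WT (log2 −0.67, SE 0.13) and the DKO mean 44.5% of WT (log2 −0.73, SE 0.13). The HKO libraries with the most Baiap2l2 were the acinar-high replicates 4 and 5. Without the 3 acinar-high libraries the HKO against WT difference was −0.86.

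Cdhr2 and Ezr overlapped between the genotypes and were called in none of the comparisons. Cdhr2, a cadherin of the links between microvilli, had 31 to 97 reads per library and averaged 0.497 ± 0.113 FPKM in DKO, 0.429 ± 0.111 in HKO, 0.661 ± 0.167 in IKO and 0.679 ± 0.146 in WT (SD, n = 5 each). Its log2 difference was −0.34 in HKO against WT (SE 0.12) and −0.24 in DKO against WT (SE 0.12), and the groups overlapped in both. The DKO and HKO means of Cdhr2 lie under the limit of 0.5 FPKM, so it was tested only through its levels in IKO and WT. Nothing is therefore read from its lower direction or from its place among the 6 tested genes. Ezr (ezrin), which ties actin to the plasma membrane, averaged 15.4 ± 2.79 FPKM in DKO and 14.5 ± 1.02 in HKO, against 13.2 ± 0.388 in IKO and 13.0 ± 1.23 in WT. Its log2 difference was 0.15 in HKO against WT and 0.23 in DKO against WT (SE 0.09 each), with overlap in both. The highest Ezr value of the series, 20.3 FPKM, was in DKO replicate 3, the acinar-high library of that group, while the other DKO libraries held 13.4 to 15.2 FPKM. Without the 3 acinar-high libraries the DKO against WT difference was 0.13.

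Counted over the 6 tested genes, 4 were called lower and 0 higher in HKO against WT at a Benjamini-Hochberg adjusted p below 0.05. Over all genes 0.61% were called lower there. In DKO against WT the count was again 4 lower and 0 higher, against 0.755% of all genes lower. With replicates 1 and 2, and 4 and 5, treated as correlated pairs, 2 of the 4 calls held in HKO against WT and 3 in DKO against WT, and with those pairs averaged 1 held in each. Nothing is read from these counts, since either comparison may have chosen the genes. The median log2 difference of the 6 was −0.61 in HKO against WT and −0.66 in DKO against WT, against medians of 0.00 and 0.02 over all genes. Groups did not overlap for 3 of the 6 in HKO against WT (1.45% of all genes were lower without overlap) and for 4 of the 6 in DKO against WT (1.76%).

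DKO against IKO asks what loss of Hnf4a does in cells that already lack Foxo1. It has no library in common with HKO against WT but shares its DKO libraries with DKO against WT, and nothing is read from its calls either. Anks4b stood in DKO at 30.1% of the IKO mean (log2 −1.58, SE 0.15). Vil1 stood at 50.7% of IKO (log2 −0.93, SE 0.16) and Baiap2l2 at 41.3% (log2 −0.81, SE 0.13). Ush1c stood at 65.3% of IKO (log2 −0.60, SE 0.09). In each of these 4 genes all DKO libraries lay below all IKO libraries, and 4 of 6 tested genes were called lower against 0.755% of all genes (lower without overlap, 4 of 6 against 1.25%). Cdhr2 was not called (log2 −0.21, SE 0.12), nor was Ezr (log2 0.20, SE 0.09).

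Leaving out any 1 library kept the 4 calls in DKO against IKO. This describes the fits only, since the comparison may have chosen the genes. With the close pairs averaged into single samples, Anks4b alone was called, and Ush1c, Vil1 and Baiap2l2 were not. With the close pairs treated as correlated, Baiap2l2 alone of the 4 lost its call.

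**Figure D2:**
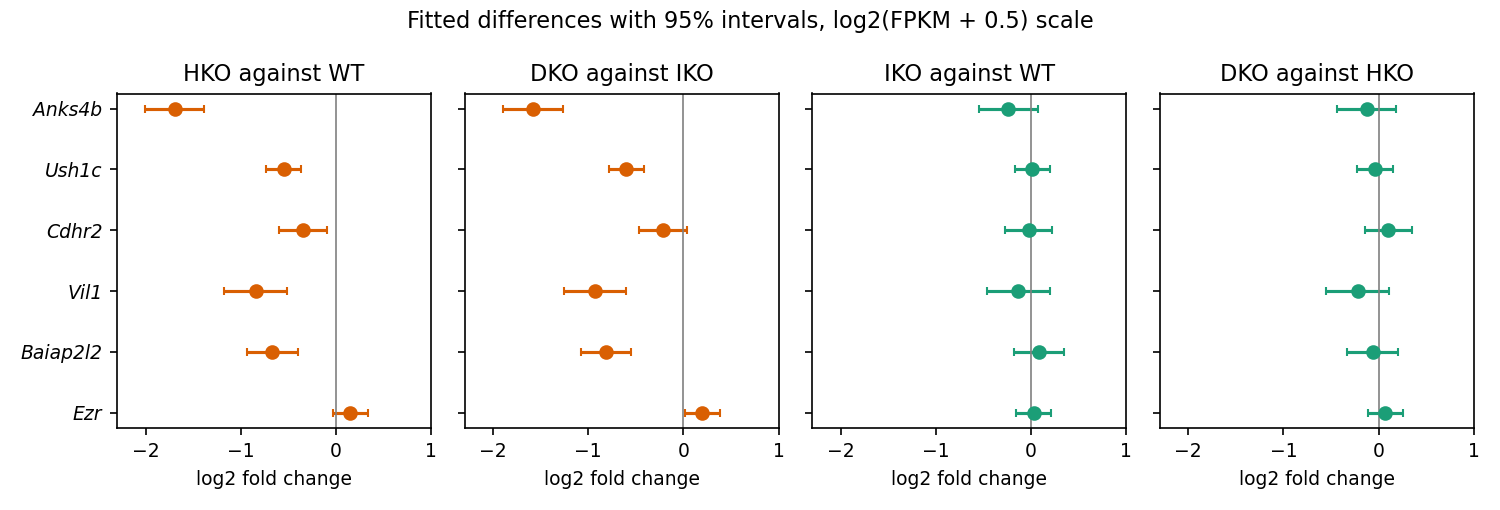
Fitted log2 fold change with its 95% interval for the 6 tested genes in HKO against WT, DKO against IKO, IKO against WT and DKO against HKO, with a grey line at 0. For HKO against WT and DKO against IKO, which may have chosen the genes, the intervals show the precision of the fit and no test. In the first and second panels Anks4b lies at −1.69 and −1.58 with Ush1c, Vil1 and Baiap2l2 between −0.55 and −0.93, and in the other panels every gene lies between −0.24 and 0.10.

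Loss of Foxo1 was compared in cells with Hnf4a (IKO against WT) and without it (DKO against HKO). None of the 6 genes passed in IKO against WT, where 0.0241% of all genes did, and 0 of 6 had an unadjusted p under 0.05 or passed in limma's voom fit on reads. Anks4b differed by −0.24 (95% interval −0.55 to 0.08), Vil1 by −0.13 (−0.46 to 0.20) and Ush1c by 0.02 (−0.17 to 0.20) on the log2 scale, each with a limma adjusted p of 0.999968. Likewise 0 of 6 passed in DKO against HKO (0.00803% of all genes did; 0 of 6 at an unadjusted p under 0.05 and 0 of 6 by voom). There Vil1 differed by −0.22 (95% interval −0.55 to 0.11) and Anks4b by −0.13 (−0.44 to 0.19), with a limma adjusted p of 0.989672 each. The interaction, which asks whether the effect of Foxo1 loss differs with Hnf4a status, was passed by 0 of 6 genes (0.00803% of all genes; 0 at an unadjusted p under 0.05, 0 by voom). For Anks4b it was 0.11 with a 95% interval from −0.33 to 0.55, and for Vil1 −0.09 with an interval from −0.55 to 0.38. Intervals of this width leave room for changes of either sign, so a missed threshold does not show that the groups were alike.

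The sets of close libraries give the same comparisons separately. In HKO against WT, Anks4b stood at 24.4% of WT in replicates 1 and 2, 24.6% in replicate 3 and 35.4% in replicates 4 and 5. In DKO against IKO it stood at 28.6%, 28.4% and 33.9% of IKO in the same order. Vil1 stood at 44.7%, 61.4% and 63.2% of WT in HKO, and at 52.5%, 44.5% and 54.0% of IKO in DKO. Ush1c, Baiap2l2 and Cdhr2 also lay below 100% in each of the 3 sets of both comparisons. The value nearest to 100% was that of Ush1c of replicate 3 in HKO against WT (88.6%). Cdhr2 was tested only through its levels in IKO and WT, so nothing is read from its direction. Ezr lay above 100% in each set of both.

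Loss of Foxo1 gave no common direction over the sets. In replicates 4 and 5, Anks4b stood at 69.0% of WT in IKO and at 66.2% of HKO in DKO, and Vil1 at 78.3% and 66.8%. In replicates 1 and 2, the values for Anks4b were 89.1% and 104% and those for Vil1 82.9% and 97.3%. In replicate 3 they were 113% and 129.9% for Anks4b and 148% and 107% for Vil1. Both genes were thus lower without Foxo1 in replicates 4 and 5 and higher in replicate 3, and these differences within sets were not tested. Replicate 3 is 1 library per genotype.

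**Figure D3:**
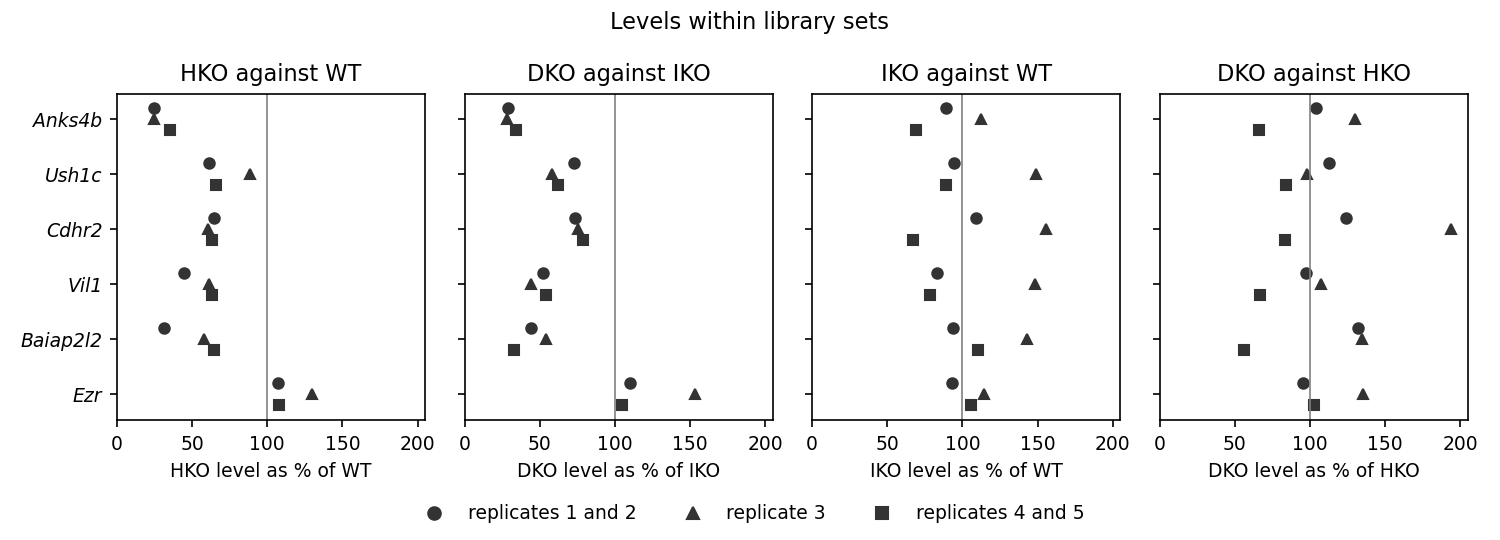
Level within each set of libraries as a percentage of the comparison group (grey line, 100%), for HKO against WT, DKO against IKO, IKO against WT and DKO against HKO. Circles are replicates 1 and 2, triangles replicate 3 and squares replicates 4 and 5; Anks4b lies between 24.4% and 35.4% in the first and second panels and between 66.2% and 129.9% in the others.

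The 4 genes under the limit were read in whole fragments. Cdhr5, the second cadherin of the tip links, had 25, 12, 8, 3 and 1 reads in DKO replicates 1 to 5 and 0, 0, 0, 7 and 5 in HKO. It had 0, 0, 0, 6 and 0 reads in IKO and 0, 1, 0, 0 and 0 in WT. The most reads were thus in DKO replicates 1 to 3, yet DKO overlapped HKO and IKO, and its lowest library had the same single read as the highest of WT. Myo1a, a class I myosin that links the actin bundle to the membrane, had 43, 24, 17, 5 and 0 reads in DKO and 9, 4, 9, 6 and 8 in HKO. It had 1, 5, 2, 12 and 5 reads in IKO and 7, 5, 7, 11 and 7 in WT. DKO replicates 1 to 3 again held the most, and DKO replicate 5 held none. Myo7b, the motor of the adhesion complex, had 21, 23, 9, 5 and 4 reads in DKO and 12, 11, 5, 4 and 4 in HKO. It had 4, 11, 9, 8 and 2 reads in IKO and 3, 15, 0, 6 and 4 in WT, and all groups overlapped. Espn (espin), an actin bundler best known from the stereocilia of the ear, had at most 3 reads in a library and 18 in all. A count of 0 allows up to 3 reads, which for these genes is 0.0131 to 0.0505 FPKM, counting error only, so no fold change is given. With no filter on low values, 10 of 10 genes were fitted and the counts of calls stayed at 4 lower in HKO against WT, DKO against WT and DKO against IKO.

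**Figure D4:**
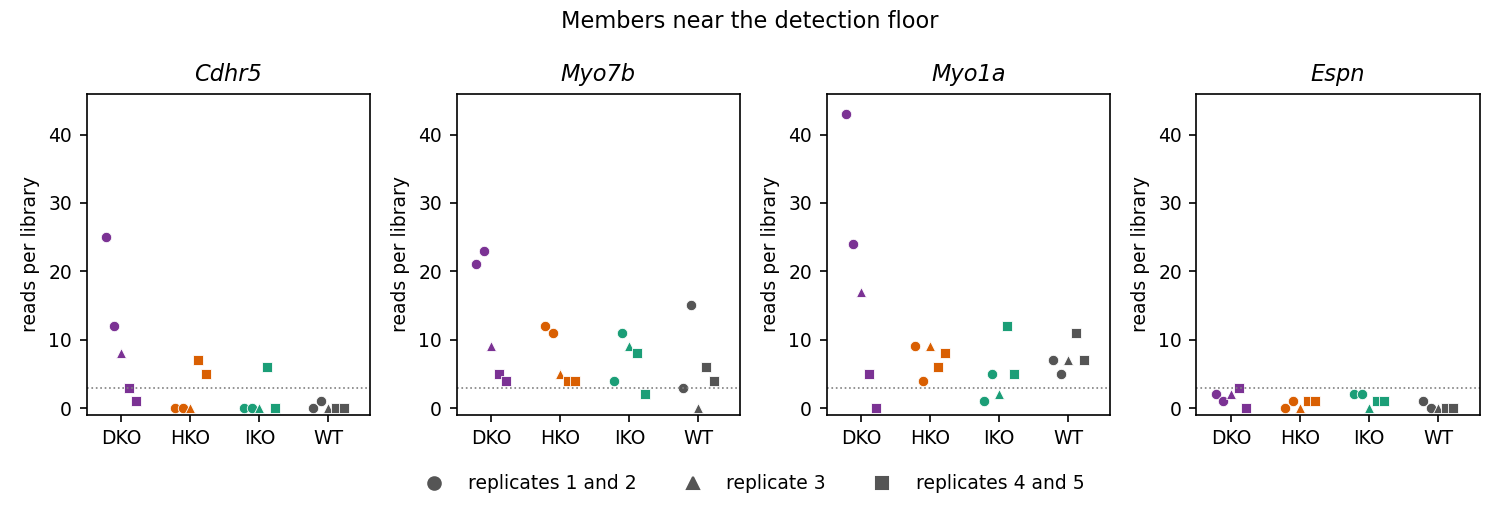
Reads per library of Cdhr5, Myo7b, Myo1a and Espn in DKO, HKO, IKO and WT, with the floor of 3 reads dotted. Circles are replicates 1 and 2, triangles replicate 3 and squares replicates 4 and 5; the highest point is Myo1a at 43 reads in DKO replicate 1, and Espn stays at or under 3 reads.

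Other epithelial cells of the pancreas also bear microvilli, so their markers were read beside these genes. Of 10 duct markers, 7 were tested, and 1 rose in DKO against WT, where 150 of the 12455 tested genes passed, 94 of them lower. That was Krt19, a keratin, at 6.12 ± 3.67 FPKM in DKO and 1.70 ± 0.656 in WT (log2 1.51, limma adjusted p = 0.00240), with its highest value of 12.6 FPKM in DKO replicate 3. Whether the Krt19 call holds with a library left out or with close pairs joined is not given here. The summed duct list ran from 1111 to 1847 FPKM in DKO, 969 to 1421 in HKO, 718 to 1478 in IKO and 803 to 1345 in WT, and was made up mostly of Spp1 and Krt7. The defining duct genes Sox9 and Cftr were near 0, with Sox9 at 0.0805 FPKM in DKO and 0.0186 in WT and Cftr at 0.0322 and 0.00346. Of the tuft cell list, whose cells carry a tuft of villin-rich microvilli, Gnat3 was at 0 in every library, Pou2f3 averaged at most 0.00555 FPKM, and the sum ran from 6.30 to 8.31 FPKM in DKO, 7.47 to 9.17 in HKO, 6.89 to 8.50 in IKO and 7.65 to 9.02 in WT. Nearly all of that sum came from Trpm5, a cation channel, at 5.75 ± 1.30 FPKM in DKO, 6.50 ± 0.654 in HKO, 6.14 ± 1.05 in IKO and 7.30 ± 0.813 in WT, and from Dclk1, a kinase, at 1.49 ± 0.412, 1.77 ± 0.142, 1.35 ± 0.492 and 1.05 ± 0.259 FPKM in DKO, HKO, IKO and WT. The 19 acinar markers summed to 191 to 1480 FPKM in DKO, 425 to 1534 in HKO, 47.3 to 252 in IKO and 63.2 to 279 in WT. Summed acinar markers thus reached higher values in both groups without Hnf4a, in which 4 microvillus genes were lower. Without the 3 acinar-high libraries, 4 of 6 genes were again called lower in HKO against WT, in DKO against WT and in DKO against IKO, with Anks4b at −1.82, −1.85 and −1.61 on the log2 scale. Over all genes 111, 166 and 156 passed in that fit, in either direction. The HKO libraries it kept still held 425 to 465 FPKM of acinar markers, above every WT library, and the DKO libraries 191 to 318 FPKM. The fit thus does not remove the acinar difference, and whether that difference bears on the 4 genes was not tested.

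A further 53 genes of the brush border, the Usher complex and the related families were listed, of which 45 were tested. In DKO against IKO 0 of 45 passed in either direction, where 1.11% of all genes did, and in DKO against HKO and the interaction likewise 0 (0.00803% of all genes in each). In HKO against WT 1 was higher and 0 lower, in IKO against WT 1 was higher and 0 lower, and in DKO against WT 1 was higher and 1 lower. Of all 12455 tested genes, 98 (76 of them lower), 3 and 150 (94 of them lower) passed in these comparisons, in the same order. The median log2 difference of the 45 was −0.03 in HKO against WT and −0.01 in DKO against IKO, against 0.00 over all genes in each.

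The gene higher in both single knockouts was Myo7a, the motor of the Usher complex of inner ear hair bundles and a paralog of Myo7b. It averaged 0.937 ± 0.625 FPKM in HKO and 1.31 ± 0.372 in IKO, against 0.154 ± 0.174 in WT (log2 1.09 and 1.48, limma adjusted p = 0.0306 and 0.0209), and 0.648 ± 0.310 in DKO. Its WT mean lies under the limit of 0.5 FPKM, so Myo7a was tested only through its levels in the knockout groups. These other genes were also listed with earlier results known, so the adjusted p-values of Myo7a, Myo1e and Prom1 are a description and no independent test. Myo7a lost its call in IKO against WT without any 1 of 6 libraries (adjusted p up to 0.110; WT replicates 1, 2, 4 and 5 and IKO replicates 4 and 5). In HKO against WT it lost it without any 1 of 5 (up to 0.1002; WT replicates 1, 2, 4 and 5 and HKO replicate 3), and in both with close pairs averaged or correlated. Myo1e, a class I myosin, was higher in DKO at 2.17 ± 0.125 FPKM against 1.33 ± 0.0695 in WT (log2 0.55, limma adjusted p = 0.00137). That limma adjusted p was 0.209 with close pairs averaged and 0.0643 with them correlated. The Myo1e mean was also above WT in HKO (1.81 ± 0.211 FPKM, log2 0.34) and in IKO (1.99 ± 0.327 FPKM, log2 0.44). Neither was called (limma adjusted p = 0.0957 and 0.145), so the rise was not particular to DKO. Prom1 (prominin), a membrane protein of protrusions, averaged 24.1 ± 3.68 FPKM in WT. Its means in HKO and IKO were lower but not called, at 15.1 ± 4.24 and 17.0 ± 4.26 FPKM (log2 −0.69 and −0.51, limma adjusted p = 0.0522 and 0.740). In DKO against WT it was called lower, at 14.5 ± 1.31 FPKM (log2 −0.71, limma adjusted p = 0.0326). This Prom1 result lost its call without any 1 of 9 of the 10 libraries compared (WT replicate 2 being the exception; adjusted p up to 0.0965) and with close pairs averaged or correlated (0.537 and 0.0970).

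Relatives and partners of the 10 genes can be read beside them. Rdx (radixin), a relative of Ezr, averaged 17.7 ± 2.28 FPKM in DKO, 17.6 ± 3.35 in HKO, 17.9 ± 2.82 in IKO and 17.9 ± 2.92 in WT. Baiap2, a relative of Baiap2l2, averaged 4.69 ± 0.565, 4.09 ± 0.319, 4.43 ± 0.4999 and 4.26 ± 0.597 FPKM in DKO, HKO, IKO and WT. Ush1g, the Usher scaffold related to Anks4b, averaged 0.915 ± 0.0900 FPKM in DKO and 1.15 ± 0.186 in HKO, against 0.994 ± 0.123 in IKO and 0.915 ± 0.105 in WT. None of these 3 passed in any comparison. Calml4, a light chain of Myo7b, averaged 0.672 ± 0.266 FPKM in DKO and 0.693 ± 0.246 in HKO, against 1.10 ± 0.283 in IKO and 0.946 ± 0.326 in WT, and did not pass (log2 −0.46 in DKO against IKO, limma adjusted p = 0.335). These 4 genes were singled out after their values were seen.

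**Figure D5:**
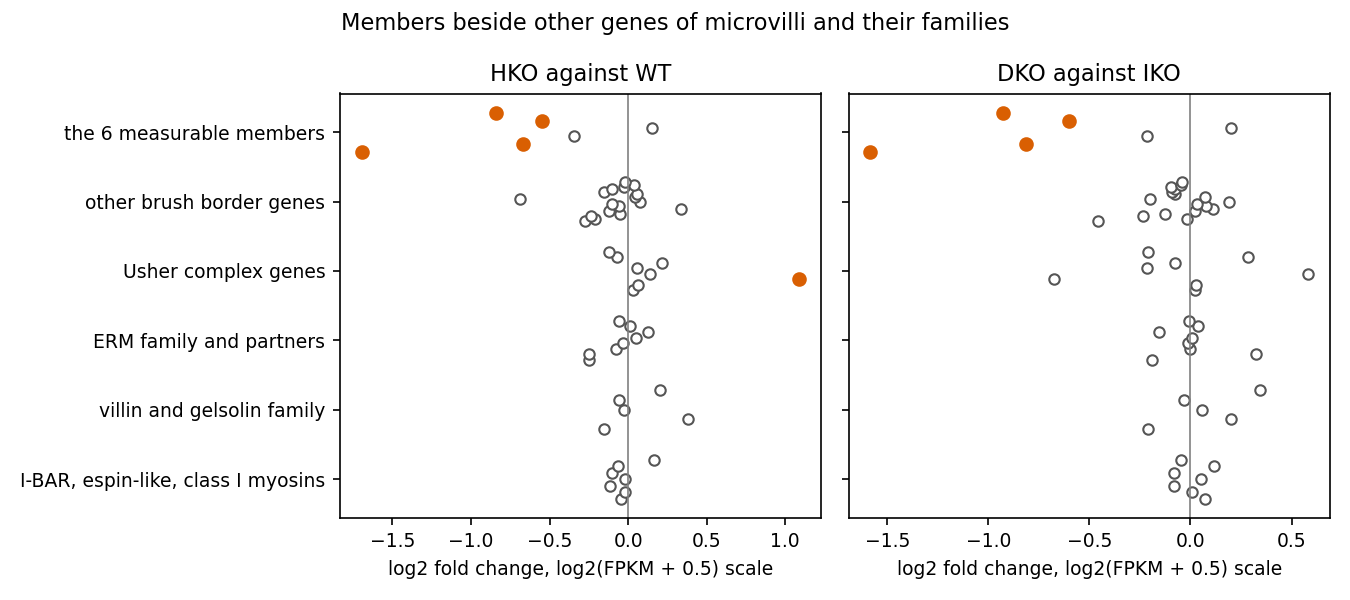
Log2 fold change of the 6 tested genes (top row) and of the 45 other tested genes by list, in HKO against WT and in DKO against IKO. Each circle is 1 gene, spread vertically for legibility only, and filled circles have a limma adjusted p below 0.05; 4 circles of the top row are filled in each panel, and of the other lists Myo7a alone, in HKO against WT.

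The pattern most like that of Anks4b over the 20 libraries was sought among all tested genes, by the root mean square difference of centred log2 profiles, where 0 is identity. Tmprss4, a membrane serine protease, came first at 0.25. Elovl2, a fatty acid elongase, followed at 0.28, then Bco1, which cleaves beta-carotene, at 0.34 and Dio1, a thyroid hormone deiodinase, at 0.35. Vil1 ranked 5 at 0.40. Baiap2l2 ranked 18 at 0.52, Ush1c 35 at 0.57, Cdhr2 137 at 0.71 and Ezr 11170 at 0.94, while the median over all tested genes was 0.87. The measure takes in the size of a change as well as its direction, and all genes share the same libraries and depths. Vil1, Baiap2l2, Ush1c, Cdhr2 and Ezr were listed with earlier results of these data known. Genes picked for lower levels without Hnf4a could lie close to Anks4b by that choice alone. Which comparison chose the list is not recorded, so nothing is read from the ranks of these listed genes.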

How the data were processed

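RNA libraries were directional, poly-A selected and read as short pairs, per the labels' protocols. The authors deposited 1 table of FPKM values covering the 20 libraries (0 columns belong to other samples). Per the submitters' processing notes, the build was mm10 and the tools included DESeq2 1.14.1, Subread 1.5.2 with featureCounts, and STAR 2.5.2b; their roles are not given. The gene annotation is not given in the sources used here. Of 27179 entries, 847 named NA and 27 named by a date were left out.

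The 10 members, the other gene lists and the motifs were chosen with earlier results of these data known. Other listed microvillus genes were named where they passed in any of the 6 comparisons, besides 4 named after their values were seen (Rdx, Baiap2, Ush1g and Calml4) and the duct marker Krt19. A result among the marker lists is not reported here. FPKM values were turned back into whole reads from their steps (within 0.02 reads, for 100% of the 21006 entries above 0); the reads gave depths, floors and 1 alternative fit. The main test was limma 3.58.1 in R 4.3.3 (lmFit, contrasts.fit, eBayes with trend) on log2(FPKM + 0.5). It took in all 20 libraries and those genes whose mean reached 0.5 FPKM, with Benjamini-Hochberg adjustment over 12455 genes and a threshold of 0.05. The fit and the recovery of reads were tested on simulated data. Precision is limited by 22.5 to 34.6 M reads per library.

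Groups and replicate numbers came from the sample titles. By chi-square per degree of freedom on reads, the 8 pairs of replicates 1 and 2 or 4 and 5 were closer (median 3.60, 1.80 to 22.3) than the 32 other pairs (median 43.2, 24.2 to 95.7). Both values exceed sampling noise, so all libraries were kept, and close pairs were averaged or treated as correlated (consensus correlation 0.81) as alternatives. The other alternatives were pseudocounts, filters, scaling, voom, blocks and left-out libraries. Promoter windows came from RefSeq (GRCm38.p6) and gene positions from GENCODE vM21, matched by symbol.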

Additional observations from a re-analysis of the deposited data

Results flagged for a closer look

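In 7 of 40 groups of 5 libraries, 1 library stood far from the other 4 by Dixon's criterion at 95%. The criterion's rate of about 1 in 20 groups by chance holds for 5 independent normal values. It does not apply here, because replicates 1 and 2, and 4 and 5, were close. A single library above 0 among zeros also meets the criterion by construction. The count of 7 is therefore not read as an excess. Ush1c was high in IKO replicate 3 (35.8 FPKM, others 27.3 to 29.5) and low in WT replicate 3 (24.0 FPKM, others 30.2 to 31.6). Baiap2l2 was low in WT replicate 3 as well (0.890 FPKM, others 1.28 to 1.38). Ezr was high in DKO replicate 3 (20.3 FPKM, others 13.4 to 15.2), the acinar-high library of that group. The other 3 cases were single libraries above 0 where the rest were at 0: Cdhr5 in IKO replicate 4 (0.0822 FPKM) and in WT replicate 2 (0.0136 FPKM), and Espn in WT replicate 1 (0.0109 FPKM). In the fits without 1 of these libraries, 4 genes were called lower in HKO against WT and in DKO against IKO as before, from which nothing is read.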

How the results depend on the processing

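Among the 6 tested genes, 4 were called lower in HKO against WT, in DKO against WT and in DKO against IKO, and 0 in the 3 other comparisons. Of all genes, 0.61%, 0.755% and 0.755% were called lower in HKO against WT, DKO against WT and DKO against IKO. These comparisons may have chosen the genes, so the counts below show only how the calls depend on settings. They lend the calls no support. The counts stayed at 4 lower in each of the 20 fits that left out 1 library, as well as with pseudocounts of 0.1 and 1 FPKM, no filter, equal medians, quantile normalization, voom on recovered reads, a library set block and without the 3 acinar-high libraries. A filter at 1 FPKM, which drops Baiap2l2, left 3. With close pairs averaged, 1 gene passed in HKO against WT, 1 in DKO against WT and 1 in DKO against IKO, Anks4b each time; this fit has 12 samples in place of 20. With close pairs correlated, 2 passed in HKO against WT (Anks4b and Vil1), 3 in DKO against WT and 3 in DKO against IKO. With only HKO and WT in the fit 3 passed, without Baiap2l2.

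With the replicate number as a block, 4 genes were again called lower in each of HKO against WT, DKO against WT and DKO against IKO. The numbers were not taken to pair the samples, since the labels do not say so and not every correlation of deviations from group means (across genes) exceeded 0.1. Between genotypes it ran from 0.08 to 0.48 for number 1, 0.11 to 0.35 for 2, 0.37 to 0.50 for 4 and 0.28 to 0.45 for 5, all positive, and from −0.39 to 0.25 for 3. Of 20 libraries, 10 correlated best with their own number. Over all genes, 98 passed in HKO against WT, 150 in DKO against WT and 138 in DKO against IKO. These became 5, 17 and 15 with close pairs averaged, 26, 42 and 26 with them correlated, 193, 263 and 291 under the replicate block and 277, 363 and 434 under the library set block. With only the 2 groups in the fit DKO against IKO had 90, and leaving out 1 library gave 66 to 112, 100 to 180 and 85 to 250. In IKO against WT 3 passed, 0 to 6 under the alternatives that keep all libraries and 1 to 29 with 1 library left out. Single fold changes kept their direction where they were called. Depth limits Cdhr5, Myo7b, Myo1a and Espn, which had 18 to 187 reads in all 20 libraries together.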
